A study of Mus musculus with 72 samples.

Results

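Livers of female mice given tertiary butyl alcohol (TBA) at 40 mg/mL in drinking water for 28 d were compared with livers of mice given 0 mg/mL for 28 d. The comparison takes every library that carries these labels, 9 in each group and 18 of the 72 in the study, and every probe measured. All animals were B6C3F1 hybrid females, 9 to 11 weeks of age as the labels give it, housed singly and randomised by body weight, and by the labels the groups differ only in the drinking water. Each library came from 1 animal, from unstained liver sections that had been fixed in formalin, embedded in paraffin and scraped from the slide. The assay was TempO-Seq, in which pairs of detector oligos are ligated on a chosen transcript and the ligated products are counted by sequencing. A probe is named by its gene symbol and a number, and a gene with several probes is given below by the probe with the highest mean count. Mice at 10 and 20 mg/mL for 28 d (9 each), and mice at 40 mg/mL (9 libraries, of which 8 were kept) and 0 mg/mL (9) for 14 d, are used where a value is set beside them. The title of the series asks about an anti-thyroid mode of action behind thyroid tumours, and faster disposal of thyroid hormone by the liver is one such mode known from rodents.

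Thyroid hormone travels in blood bound to carriers that the liver secretes, among them transthyretin and thyroxine-binding globulin, and it enters hepatocytes through membrane transporters. Inside, deiodinases remove iodine, and glucuronosyltransferases and sulfotransferases attach groups with which the hormone leaves in bile and urine. Many foreign chemicals activate the nuclear receptors CAR and PXR, which raise drug-metabolising enzymes such as Cyp2b10 and can raise the conjugating enzymes too. Hepatocytes also answer amino acid shortage and other stress through the transcription factor Atf4, whose targets include the hormone gene Fgf21.

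The 18 libraries held 7.77 to 11.9 M (mega) counts, 9.58 ± 1.12 M in dosed and 9.32 ± 0.933 M in control mice (SD, n = 9 each; exact permutation test, two-sided p = 0.599). The TMM scaling factor was 1.05 ± 0.214 in dosed and 0.927 ± 0.176 in control mice (SD, n = 9 each; exact permutation p = 0.189). The 20 most abundant features held 17.6 ± 3.36% of counts in dosed and 21.0 ± 3.09% in control mice (SD, n = 9 each; exact permutation p = 0.0410, or 0.123 adjusted over the 3 measures). Control replicate 3 stood apart from the other controls, with a factor of 1.37 and a share of 13.4%. Without it, 6 features passed as higher and 2 as lower in the comparison below, against 1 and 0 with it. Hepatocyte markers fitted the tissue label, with summed levels of 20240 to 51900 CPM in dosed and 17520 to 59610 CPM in control mice over 7 markers. Kupffer cell markers (11, of which 10 were tested) summed to 190 to 347 CPM in dosed and 208 to 252 CPM in control mice. Of these, Clec4f (log2 fold change 0.47) and C1qa (0.50) were higher at an unadjusted p under 0.05, against 3.32% of all genes. Markers of sinusoidal endothelial cells summed to 429 to 553 CPM in dosed and 467 to 575 CPM in control mice. Those of stellate cells summed to 294 to 469 CPM in dosed and 327 to 459 CPM in control mice, with Lrat higher at that threshold. Of 7 exocrine pancreas markers 2 were tested, and Cela2a was higher at that threshold (log2 fold change 3.07). Its levels were low, with medians of 0.997 CPM in dosed and 0.236 CPM in control mice, and 6 dosed mice lay above every control. The part of these cells in the results was not tested. Of 5 adipocyte markers 0 passed the filter, and Plin1, Retn and Lep were at 0 in all 18 libraries. No pair of libraries was a duplicate.

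After 28 d at 40 mg/mL, the transcript of Serpina7, which encodes thyroxine-binding globulin, was the 1 feature of 17050 tested that passed an adjusted p of 0.05 (0.00587%), and it was higher in dosed mice. In sections of whole liver, fewer cells of a type and less RNA per cell cannot be told apart. In edgeR's quasi-likelihood test with Benjamini-Hochberg adjustment, 0 features were called lower. At an unadjusted p under 0.05 the same test gave 583 features higher (3.42%) and 495 lower (2.9%), or 6.32% in all. DESeq2 called 19 features higher and 11 lower, and limma with quality weights called 69 higher and 114 lower. The median log2 fold change over all features was 0.03, its median standard error was 0.25, and the biological coefficient of variation was 0.402. Apart from Serpina7, the transcripts below did not pass this adjustment, so their values are given without a call. Besides Serpina7 and a panel of 21 thyroid and drug-metabolism genes that includes it, all genes named were chosen after their values were seen, chiefly for a small unadjusted p.

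The promoters of 3 genes are printed from RefSeq with build GRCm38.p6, from 250 bases before to 50 after the listed start. Serpina7 is shown as the gene that passed. Cyp2b10 and Fgf21 were picked after the values were seen, as genes whose high dosed mice had 1 animal in common. Serpina7 lies at chrX:139085187-139085486 on the minus strand (the first of 2 listed starts), Cyp2b10 at chr7:25897408-25897707 on the plus strand, and Fgf21 at chr7:45615441-45615740 on the minus strand. Capitals mark a match to TGATGCAA, the C/EBP-ATF composite element that Atf4 can bind.
Serpina7: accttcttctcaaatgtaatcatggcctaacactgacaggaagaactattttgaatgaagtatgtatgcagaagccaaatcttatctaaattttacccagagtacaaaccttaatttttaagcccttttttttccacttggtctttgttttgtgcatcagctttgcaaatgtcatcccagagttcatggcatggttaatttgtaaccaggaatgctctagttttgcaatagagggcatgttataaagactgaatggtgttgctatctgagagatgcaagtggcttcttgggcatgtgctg
Cyp2b10: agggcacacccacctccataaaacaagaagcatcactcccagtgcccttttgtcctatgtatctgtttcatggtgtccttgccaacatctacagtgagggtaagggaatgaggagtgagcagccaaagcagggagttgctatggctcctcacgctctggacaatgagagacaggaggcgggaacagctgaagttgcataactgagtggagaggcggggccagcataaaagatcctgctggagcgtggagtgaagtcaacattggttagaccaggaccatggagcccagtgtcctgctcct
Fgf21: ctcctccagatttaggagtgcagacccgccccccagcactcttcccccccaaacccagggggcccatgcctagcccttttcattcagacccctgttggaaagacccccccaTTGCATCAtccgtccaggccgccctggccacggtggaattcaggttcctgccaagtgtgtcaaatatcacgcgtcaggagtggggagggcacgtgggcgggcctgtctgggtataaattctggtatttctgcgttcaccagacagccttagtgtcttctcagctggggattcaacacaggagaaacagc
Both strands were searched. The Fgf21 promoter holds 1 copy of TGATGCAA on the strand opposite to the gene, which reads TTGCATCA as printed, at bases 112 to 119 of 300. Of 32851 mouse promoters of this length, 0.895% hold that element. AGGTCA, a half-site bound by nuclear receptors, is in 0 of the 3 windows and in 16.3% of all promoters. A match is a string of letters and not a measured site, and the windows leave out distal enhancers.

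Serpina7 had 51.6, 957, 156, 288, 1341, 67.8, 68.7, 659 and 523 CPM, that is, counts relative to the scaled library total, in the 9 dosed mice. The 9 control mice had 14.2 to 64.2 CPM, with a median of 21.2. In all, 8 of 9 dosed mice stood above every control, and the lowest, replicate 1, lay within the control range. Dosed over control, the log2 fold change was 4.04 (SE 0.75), or 16.5-fold with a 95% interval of 5.88 to 46.4, at an adjusted p of 0.0166. A second Serpina7 probe had 3.07, 25.7 and 81.4 CPM (lowest, median and highest) in dosed mice, against 0, 2.06 and 5.20 CPM in control mice. Its log2 fold change was 4.10 (SE 0.84) at an adjusted p of 0.0576, so it was as far from control in size and just short of the threshold. The call for the first probe was lost in 5 of the 18 fits that left out 1 library. These left out control replicate 1, 2, 4, 7 or 8, and gave adjusted p values of 0.0656, 0.0650, 0.0623, 0.0640 and 0.0520.

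Across doses and times the levels of Serpina7 were as follows. At 28 d its median was 21.2 CPM at 0 mg/mL, 14.6 CPM at 10 mg/mL, 117 CPM at 20 mg/mL and 288 CPM at 40 mg/mL. At 14 d the medians were 26.7, 26.3, 101 and 91.2 CPM at 0, 10, 20 and 40 mg/mL, the last over 8 libraries. So the median at 40 mg/mL lay above that at 20 mg/mL at 28 d, and at 14 d it did not. Against the same 28 d controls, the log2 fold changes were -0.22 at 10 mg/mL, 2.21 at 20 mg/mL and 4.04 at 40 mg/mL. Directly, 40 over 20 mg/mL at 28 d gave 1.84 at an adjusted p of 0.265. The 14 d comparison, in other animals with their own controls, gave a log2 fold change of 1.38 at an adjusted p of 0.259. The difference of 28 d minus 14 d was 2.66 at an adjusted p of 0.520, which did not pass. Single mice were high in other groups too, up to 707 CPM at 10 mg/mL and 1211 CPM at 20 mg/mL for 14 d.

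**Figure D1:**
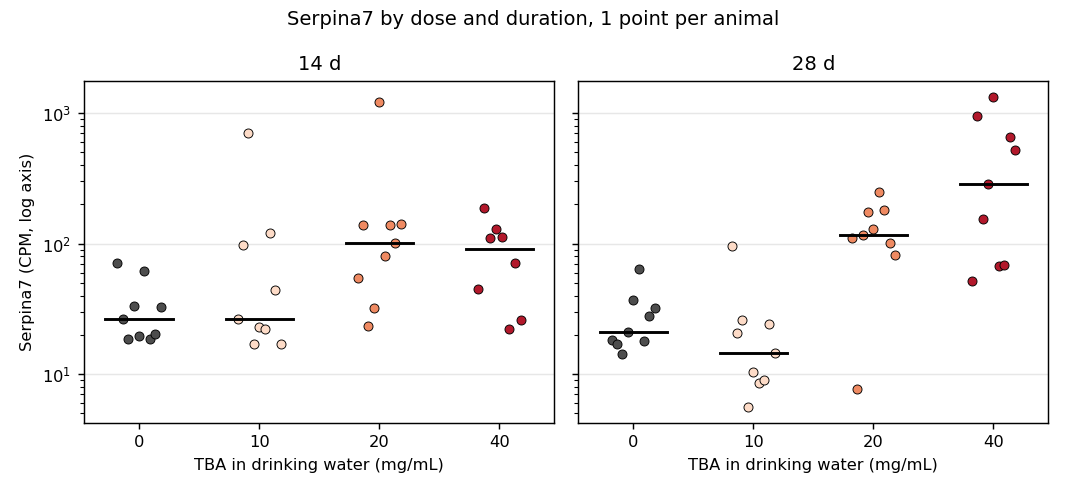
Serpina7 transcript (CPM, log axis) in each mouse by TBA dose in drinking water, at 14 d on the left and 28 d on the right; each point is 1 animal and the bar is the group median. At 28 d the median at 40 mg/mL is 288 CPM and 8 of 9 mice lie above the highest control at 64.2 CPM.

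The other carriers, transporters and deiodinases did not pass adjustment. Of 18 members tested in this list, 1 passed after adjustment (Serpina7), and at an unadjusted p 2 were higher and 2 lower. Counted with 1 probe a gene, 3.32% of 11784 genes were higher and 3.47% lower at that threshold. The list's median log2 fold change was -0.03 (0.20 with the scaling factor as a covariate), against 0.02 over all genes. Transthyretin (Ttr), another thyroxine carrier made in liver, had 2262, 4448 and 5635 CPM in dosed mice and 1662, 4238 and 4956 CPM in control mice. The groups overlapped over nearly their whole range, and the log2 fold change of 0.02 has a 95% interval of -0.36 to 0.40. That of albumin was 0.11. Dio1, the deiodinase that converts thyroxine to active hormone in liver, had 79.4, 140 and 248 CPM in dosed mice against 94.7, 252 and 266 CPM in control mice. Most dosed mice lay in the lower part of the control range, and 1 lay below it. The 4 Dio1 probes gave log2 fold changes of -0.56, -0.56, -0.59 and -0.32, and their smallest adjusted p was 0.512. The organic anion transporters Slco1a1 and Slco1b2 had log2 fold changes of -0.82 and -0.07. With the scaling factor as a covariate the values were -0.045 for Slco1a1, -0.17 for Dio1 and 0.32 for Slco1b2, the last with the other sign.

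Glucuronosyltransferases of the panel overlapped with the controls. Of 17 glucuronosyltransferases tested, 0 were higher and 2 lower at an unadjusted p under 0.05 by edgeR, and 0 passed adjustment. At that threshold 3.32% of all genes were higher and 3.47% lower. The list median was -0.02, and 0.24 with the scaling factor as a covariate. Ugt1a1, which glucuronidates thyroxine and bilirubin, had 1062, 2700 and 3625 CPM in dosed mice against 965, 3006 and 3830 CPM in control mice. The groups covered the same range, with a log2 fold change of -0.15 and an interval of -0.63 to 0.34. Ugt1a genes share their last exons, so reads of their probes may not be assigned to a single member with certainty. The log2 fold changes were -0.02 for Ugt1a6a, 0.34 for Ugt1a9, 0.00 for Ugt2b34, -0.45 for Ugt2a3 and -0.59 for Ugt2b1, the last 2 being the members lower at an unadjusted p. The signs for Ugt1a1, Ugt1a6a and Ugt2b34 changed with the scaling factor as a covariate, to 0.26, 0.11 and 0.29. In that fit Ugt1a9 had 1.54 at an adjusted p of 0.0425 by edgeR, past the threshold, and it passed in no other alternative.

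Sulfotransferases had values in both directions. Of 13 tested, 4 were higher and 3 lower at an unadjusted p, against 3.32% and 3.47% of all genes, with a median of 0.49. The median was 0.12 in the fit of these groups alone and 0.16 without dosed replicate 5. Sult1b1, which sulfates thyroid hormones, had 29.4, 37.0 and 64.9 CPM in dosed mice against 56.7, 67.7 and 76.8 CPM in control mice. In all, 8 dosed animals, all but replicate 2, lay below every control. Its log2 fold change was -0.70 (SE 0.18) at an adjusted p of 0.143, and a second probe gave -0.66. At 14 d Sult1b1 had a log2 fold change of -0.22. Sult2a1, which sulfates steroids and bile acids and is more abundant in female mouse liver, had 3.86, 80.2 and 410 CPM in dosed mice against 0.517, 33.9 and 227 CPM in control mice. Both groups spread over a wide range, and the log2 fold change of 1.57 had an adjusted p of 0.688. Sult2a2 had 1.45 and Sult5a1 had -1.21, while Sult1a1 and Sult1d1 had 0.08 and 0.12. The efflux transporters Abcc2 and Abcc3 had log2 fold changes of 0.01 and -0.14 (Abcc3 had 0.04 with the scaling factor as a covariate), and the multidrug transporter Abcb1a had 0.93. With the covariate Abcb1a had 1.20 at an adjusted p of 0.00945 by edgeR, past the threshold, and it passed in no other alternative.

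**Figure D2:**
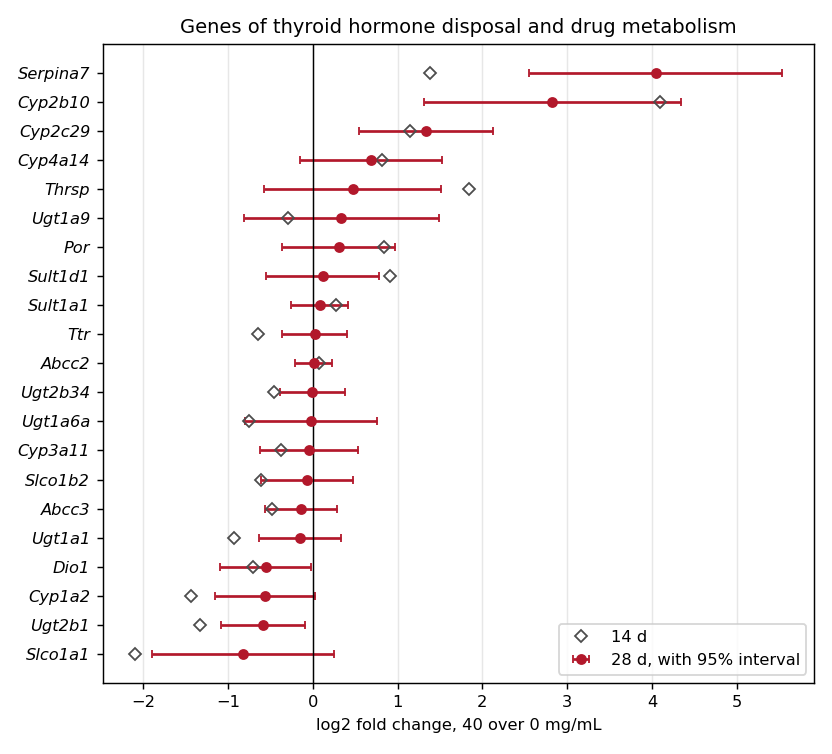
Log2 fold change of 40 over 0 mg/mL for the 21 panel genes at 28 d (filled points, with 95% intervals) and at 14 d (open diamonds). Serpina7 at 4.04 and Cyp2b10 at 2.83 stand to the right, while Ttr at 0.02 and Abcc2 at 0.01 lie at zero.

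Cyp2b10, a cytochrome P450 and the standard reporter of CAR activity in mouse liver, had 24.7, 338 and 1201 CPM in dosed mice against 23.8, 51.5 and 95.2 CPM in control mice. Replicates 2, 4, 5, 8 and 9 had 368, 338, 977, 1201 and 565 CPM, above every control, while replicates 1, 3, 6 and 7 had 66.5, 24.7, 30.7 and 39.3 CPM, inside the control range. The log2 fold change was 2.83 (SE 0.76), or 7.09-fold, at an adjusted p of 0.221, and a second probe gave 2.86. At 14 d Cyp2b10 had 20.3, 136 and 6424 CPM at 40 mg/mL (n = 8) against 31.6, 54.6 and 101 CPM at 0 mg/mL, in groups that overlapped. The log2 fold change there was 4.09 at an adjusted p of 0.000796. Replicate 9 had the 6424 CPM and the next highest mouse 1380 CPM, while replicates 1, 3, 6 and 7 did not exceed the highest control. The difference of 28 d minus 14 d was -1.27 at an adjusted p of 0.947. At 28 d the median was 51.5 CPM at 0 mg/mL, 335 CPM at 10 mg/mL (153 to 610), 700 CPM at 20 mg/mL (103 to 2095) and 338 CPM at 40 mg/mL. All mice at 10 and 20 mg/mL thus lay above the highest control of 95.2 CPM, whereas 4 of 9 at 40 mg/mL did not. Directly, 40 over 20 mg/mL gave -0.96 at an adjusted p of 0.645.

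Cyp2c29 and Cyp2c55 had the same high animals. Cyp2c29, an epoxygenase and CAR target, had 718, 3977 and 6485 CPM in dosed mice against 404, 1350 and 1910 CPM in control mice, and its log2 fold change was 1.34 at an adjusted p of 0.330 (1.65 and 0.00959 by edgeR with the scaling factor as a covariate). Cyp2c55 had 3.17, 22.6 and 84.1 CPM in dosed mice against 0, 11.7 and 19.0 CPM in control mice, with a log2 fold change of 1.41. For both, by the probes given, the dosed mice above every control were the 5 that exceeded all controls for Cyp2b10. By a less abundant Cyp2c29 probe, dosed replicate 3 also lay above every control, at 364 CPM against at most 275 CPM. The control library with the lowest Cyp2c29 and Cyp2c55 was replicate 3, which also had the highest scaling factor of the controls. Abcc4, an efflux transporter and CAR target, had 0.304, 1.70 and 4.80 CPM in dosed mice against 0, 0.813 and 1.08 CPM in control mice, with a log2 fold change of 1.44. It was above every control in replicates 1, 2, 4, 7 and 8, of which 3 were among the 5 for Cyp2b10. Over the 36 CAR and PXR targets tested, 4 were higher and 1 lower at an unadjusted p, against 3.32% and 3.47% of all genes. Their median was 0.18. Cyp3a11, the main PXR target, had a log2 fold change of -0.04, which was 0.44 with the scaling factor as a covariate, and Por, which passes electrons to cytochromes P450, had 0.30. The AhR target Cyp1a2 and the PPARA target Cyp4a14 had -0.56 and 0.69, at adjusted p values of 0.800 and 0.859.

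Cyp2a22, another P450, was among the genes nearest to the threshold. It had 14.0, 29.5 and 58.3 CPM in dosed mice against 4.86, 9.09 and 16.5 CPM in control mice. All dosed mice but replicate 6 lay above every control. Its log2 fold change was 1.62 (SE 0.34) at an adjusted p of 0.0641. DESeq2 and limma called it, as did edgeR in the fits without robust estimation, with a filter at 5 CPM, with these groups alone, with the covariate and with probes summed. Its medians at 28 d were 9.09, 16.0, 30.0 and 29.5 CPM at 0, 10, 20 and 40 mg/mL, and at 14 d its log2 fold change was 1.98. The ribosomal protein gene Rpl26 had a smaller and narrower difference, with 36.7, 42.4 and 51.8 CPM in dosed mice and 22.5, 31.8 and 37.5 CPM in control mice, a log2 fold change of 0.48 and an adjusted p of 0.0641. Cyp2a22 was not alone in passing under other settings. Of the 11 alternatives other than leaving out 1 library, Rpl26 and Elovl3 each passed in 6, Lhpp in 5 and Oat in 4. DESeq2 also called Cyp2b10, Fgf21 and Pnpla3.

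**Figure D3:**
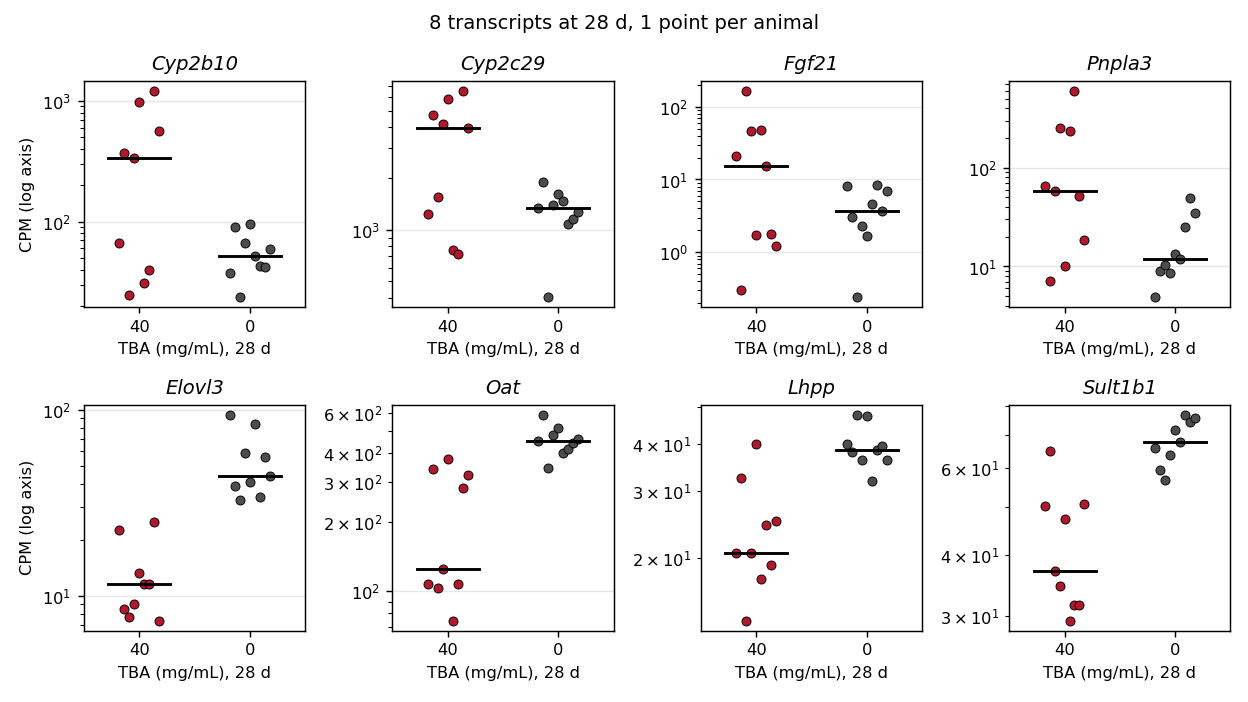
Levels of 8 transcripts (CPM, log axes) in each of the 9 mice at 40 mg/mL (left) and the 9 at 0 mg/mL (right) for 28 d, with bars at the group medians. Cyp2b10 and Cyp2c29 split the dosed mice into some within and some above the control range, while Elovl3, by the probe shown, lies below every control in all 9.

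Elovl3, which elongates long-chain fatty acids and is more abundant in male than in female mouse liver, had 7.37, 11.6 and 24.8 CPM in dosed mice against 32.6, 44.1 and 93.9 CPM in control mice. The groups did not overlap. This is a log2 fold change of -2.04 (SE 0.44), or 4.13-fold lower in dosed mice, at an adjusted p of 0.0641. The other probe gave -2.19, and its groups overlapped, with 8 dosed mice below every control. In all, 6 features of 17050 (0.0352%) had groups that did not overlap, 1 with the dosed mice higher (0.00587%) and 5 with them lower (0.0293%). Rnf145, a ubiquitin ligase of the endoplasmic reticulum, had 8.33, 10.6 and 15.4 CPM in dosed mice against 4.95, 6.61 and 8.00 CPM in control mice. The other 4 were Npr2, a natriuretic peptide receptor (log2 fold change -0.56), Ttc39c (-0.67), the respiratory chain subunit Uqcrc1 (-0.29) and 1 probe of the selenium-binding protein Selenbp2 (-2.36). Another Uqcrc1 probe gave -0.20, with 3 dosed mice below every control. That Selenbp2 probe had 0, 1.57 and 2.98 CPM in dosed mice against 4.48, 8.17 and 11.2 CPM in control mice, whereas the more abundant Selenbp2 probe had a log2 fold change of -0.45.

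Elovl3 belongs to a list of 15 tested genes that are more abundant in male liver, all of which had negative log2 fold changes, with 9 lower at an unadjusted p under 0.05 and a median of -0.78. Over all genes 3.32% were higher and 3.47% lower at that threshold, and the median was 0.02. Cyp7b1, an oxysterol hydroxylase, had 2.89, 7.41 and 16.6 CPM in dosed mice against 9.71, 15.7 and 31.5 CPM in control mice, and 7 dosed mice lay below every control. Its log2 fold change was -1.13 at an adjusted p of 0.238. Of 23 genes more abundant in female liver, 8 were higher and 0 lower, with a median of 0.29. They include Sult2a1, Sult2a2, the flavin monooxygenase Fmo2 (0.96), and the acyl-CoA thioesterases Acot3 (1.30) and Acot4 (1.00). Of 12 major urinary proteins, pheromone carriers that share members with the male-biased list, 0 were higher and 6 lower, with a median of -0.62. Mup8 had 322, 633 and 1020 CPM in dosed mice against 759, 1222 and 1519 CPM in control mice, and 8 dosed mice lay below every control. These genes are near-identical copies, so their probes cannot be read as single genes with certainty. With the scaling factor as a covariate the medians were -0.44 for the male-biased genes and -0.28 for the urinary proteins. At 14 d these 2 lists had medians of -1.68 and -1.73, with 10 and 11 members lower after adjustment. The female-biased list had a median of 0.46 with the covariate at 28 d. At 14 d its median was -0.14, with 2 members higher and 4 lower after adjustment.

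Genes of fatty acid and triglyceride synthesis had more members higher at an unadjusted p than any list but the female-biased one. The lists differ in length, and the shorter sulfotransferase list had 4 of 13 higher. Of all genes, 3.32% were higher and 3.47% lower at that threshold. Of 21 tested, 6 were higher and 0 lower at an unadjusted p, with a median of 0.43 and 0 past adjustment. By edgeR 0 members of any list other than Serpina7 passed. Pnpla3, a lipid droplet protein induced by feeding, had 7.11, 58.0 and 593 CPM in dosed mice against 4.93, 11.9 and 49.7 CPM in control mice. The 6 dosed replicates 1, 3, 4, 6, 7 and 8 stood above every control. For Pnpla3 the log2 fold change was 2.95 (SE 0.70) at an adjusted p of 0.107. Acaca, which makes malonyl-CoA, had 59.2, 126 and 295 CPM in dosed mice against 50.5, 71.7 and 122 CPM in control mice, and its 5 highest dosed mice lay above every control. Its log2 fold change was 0.98 at an adjusted p of 0.221, and those of Fasn and Me1 were both 0.96. At 14 d the list median was 1.05 and 9 members had passed as higher. Acaca, Fasn and Me1 are also targets of the thyroid hormone receptor, of which 18 were tested, with 3 higher and 1 lower (Dio1) and a median of -0.07. Thrsp, a strongly hormone-responsive lipogenic gene, had 1.23, 6.78 and 12.1 CPM in dosed mice against 1.47, 4.50 and 11.1 CPM in control mice, with overlapping groups and a log2 fold change of 0.47.

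Fgf21, a hepatokine induced by fasting and amino acid stress, had 0.305, 15.2 and 162 CPM in dosed mice against 0.245, 3.66 and 8.32 CPM in control mice. Replicates 1, 3, 4, 6 and 7 had 20.7, 162, 46.0, 47.5 and 15.2 CPM, above every control, while replicates 2, 5, 8 and 9 had 0.305, 1.71, 1.77 and 1.21 CPM, in the lower part of the control range. The log2 fold change was 2.95 (SE 0.76) at an adjusted p of 0.163, and a second probe gave 3.37 at an adjusted p of 0.138. Nupr1, a stress-induced chromatin protein, had 0.428, 2.61 and 8.25 CPM in dosed mice against 0.364, 0.584 and 1.57 CPM in control mice, with a log2 fold change of 2.21. Asns, the asparagine synthetase that Atf4 induces, was near the lower limit, with at most 2.51 CPM in dosed mice and 0.241 CPM in control mice. Atf4 itself had a log2 fold change of 0.57, and Gadd45a, a stress gene also controlled by p53, had 1.05. Of 23 genes of the unfolded protein and integrated stress responses, 5 were higher and 1 lower at an unadjusted p, and the median was 0.10. The shares of all genes were 3.32% higher and 3.47% lower.

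The dosed mice with high Cyp2b10 and those with high Fgf21 had 1 animal in common. Of the 5 above every control for Cyp2b10 and the 5 above every control for Fgf21, 1 animal, replicate 4, was in both sets. Sets of 5 drawn from 9 mice share at least 1, and this pair of genes was picked after the values were seen. Whether so small an overlap differs from chance was not tested. The 5 animals with high Fgf21 were the same 5 as for Asns and for Me1, and all 5 were among the 6 with high Nupr1 and the 6 with high Pnpla3. The tyrosine-degrading enzymes Hpd and Fah, each by its most abundant probe, were below every control in replicates 1, 3, 4, 6, 7 and 8. These include all 5 with high Fgf21. By a less abundant Fah probe (log2 fold change -0.16), 3 dosed mice lay below every control. By another (-0.31), 6 lay below and 2 above. Hpd had 1885, 3428 and 6851 CPM in dosed mice against 4667, 5041 and 6231 CPM in control mice, and replicate 2 had the highest value of all. The urea cycle enzyme Ass1 was below every control in replicates 1, 3, 6 and 7, and above every control in replicates 2 and 5. By a less abundant Ass1 probe, 5 dosed mice lay below every control and 0 above. Elovl3 was below every control in all 9 dosed mice by its more abundant probe, and in 8 by the other. The 5 highest Serpina7 levels were those of replicates 5, 2, 8, 9 and 4, at 1341, 957, 659, 523 and 288 CPM, the same 5 animals that exceeded every control for Cyp2b10, and the other 4 had 51.6 to 156 CPM. The scaling factors of dosed replicates 1 to 9 were 1.14, 0.831, 0.907, 0.977, 0.798, 1.35, 1.40, 1.08 and 0.988. Replicates 6, 7 and 1 had the highest 3, and they also had the 3 lowest Serpina7 levels after scaling, at 67.8, 68.7 and 51.6 CPM. The part of library composition in these patterns was not tested, and the labels give no body weight, water intake or plate by which to order the animals.

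**Figure D4:**
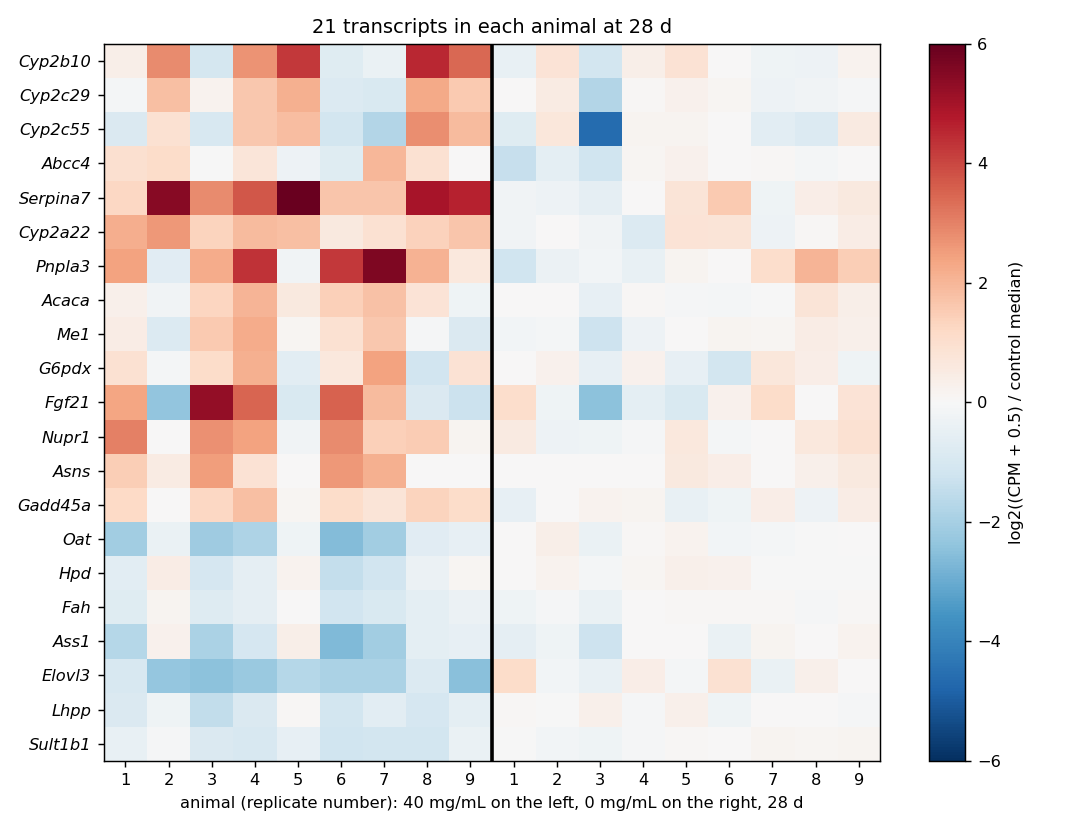
Heat map of 21 transcripts in each of the 9 mice at 40 mg/mL (left) and the 9 at 0 mg/mL (right) for 28 d, as log2 CPM relative to the control median. Dosed replicates 2, 5, 8 and 9 are high for Cyp2b10 and not for Fgf21, replicates 1, 3, 6 and 7 the reverse, and replicate 4 is high for both.

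Among enzymes of amino acid and alcohol breakdown, 23 of 27 and 13 of 14 had negative log2 fold changes, against 45.2% of all features. Oat, which breaks down ornithine in the hepatocytes around the central vein, had 74.4, 125 and 376 CPM in dosed mice against 346, 453 and 588 CPM in control mice. All dosed mice but replicate 5 lay below every control. For Oat the log2 fold change was -1.16 (SE 0.26) at an adjusted p of 0.0736. Of 27 genes of the urea cycle and amino acid breakdown, 0 were higher and 4 lower at an unadjusted p (Oat, Ass1, Hpd and Fah), with a median of -0.21. Of 14 alcohol and aldehyde enzymes, 0 were higher and 4 lower, among them Adh4 (-0.68), Adh5 (-0.32) and Aldh2 (-0.30), with a median of -0.28. At that threshold 3.32% of all genes were higher and 3.47% lower. With the scaling factor as a covariate both lists had a median of -0.12. In bile acid synthesis, the sterol hydroxylase Cyp8b1 had 116, 263 and 444 CPM in dosed mice against 243, 521 and 658 CPM in control mice. In all, 4 dosed mice lay below every control, and the log2 fold change was -0.90 at an adjusted p of 0.263. Hsd3b7, which acts earlier on the same route, had a log2 fold change of -0.54.

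Lhpp, a phosphatase, had 13.7, 20.6 and 40.1 CPM in dosed mice against 31.9, 38.5 and 47.7 CPM in control mice. Replicates 1, 3, 4, 6, 7, 8 and 9 lay below every control and the other two inside the control range. The log2 fold change was -0.74 (SE 0.17) at an adjusted p of 0.0736, the second probe gave -0.76, and the value at 14 d was 0.02. The difference of 28 d minus 14 d was -0.75 at an adjusted p of 0.359. Among others with small p values, Slc22a28, an organic anion transporter, had a log2 fold change of -1.77 and Snx29, a sorting nexin, -0.67. A probe of the glycolytic enzyme Gpi1 had 1.00, at an adjusted p of 0.0736, and the more abundant probe had 0.62.

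Cell cycle genes gave no call at 28 d. Of 31 tested, 0 were higher and 0 lower at an unadjusted p under 0.05 by edgeR (0 past adjustment), and the median log2 fold change was -0.20 (-0.61 without dosed replicate 6, -0.59 with the scaling factor as a covariate). At 14 d the same list had a median of 2.55 and 15 members higher after adjustment. The proliferation marker Mki67 had -0.28 at 28 d and 3.38 at 14 d, and the mitotic regulators Cdk1 and Birc5 had -0.65 and -0.37 at 28 d, against 2.93 and 3.55 at 14 d. For 19 of the 31 the difference of 28 d minus 14 d was negative at an unadjusted p, against 2.93% of all features lower and 3.41% higher, and 0 passed adjustment. Acute phase proteins (26 tested) and interferon response genes (33 tested) also had 0 higher and 0 lower at an unadjusted p, with medians of 0.09 and -0.11. At that threshold 3.32% of all genes were higher and 3.47% lower at 28 d. Of 34 PPARA targets, 4 were higher and 0 lower with a median of 0.00, and of 27 NRF2 targets 3 were higher and 0 lower with a median of 0.08. Of 19 genes of glucose and glycogen metabolism, 4 were higher and 0 lower, led by pyruvate kinase (Pklr, 0.88), with a median of 0.09. Of 25 cholesterol genes 0 were higher and 2 lower, with a median of -0.20, which was 0.094 with the scaling factor as a covariate.

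The remaining lists had the following counts at an unadjusted p under 0.05, where 3.32% of all genes were higher and 3.47% lower. Of 15 genes of hepatocytes around the central vein, 0 were higher and 3 lower (Oat, the glutamate transporter Slc1a2 at -0.69 and the secreted factor Lect2 at -0.71), with a median of -0.31. Of 15 genes of hepatocytes around the portal vein, 0 were higher and 1 lower (Ass1), with a median of -0.20. With the scaling factor as a covariate these medians were -0.14 (central) and -0.0055 (portal). Bile acid genes (20) had 1 higher and 3 lower with a median of -0.08, and glutathione transferases (21) also had 1 and 3, with a median of -0.08. Growth hormone signalling (16) had 1 higher (Jak2) and 1 lower (Igf1, -0.34) with a median of 0.05. The p53 targets (16) had 2 higher and 1 lower with a median of 0.12, AhR targets (6) had 1 and 0 with a median of 0.08, and clock genes (20) had 0 and 1 with a median of 0.19.

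**Figure D5:**
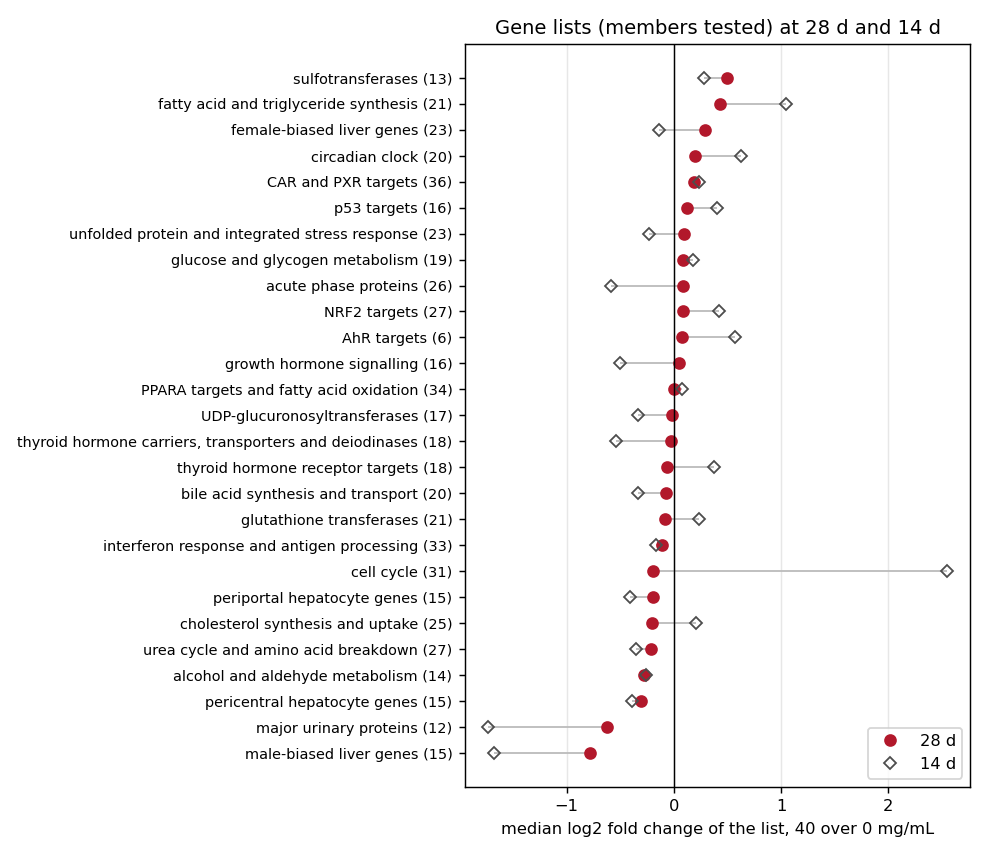
Median log2 fold change of 40 over 0 mg/mL for 27 gene lists (members tested in brackets) at 28 d (filled points) and 14 d (open diamonds). At 28 d the list medians lie between -0.78 (male-biased genes) and 0.49 (sulfotransferases), and the cell cycle list lies at -0.20 against 2.55 at 14 d.

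The transcripts that had passed at 14 d, 6.52% of those tested, were read at 28 d, in other animals with other controls. Of 484 features higher at 14 d (2.84% of those tested), 386 were positive at 28 d (79.8%), 97 of them at an unadjusted p under 0.05 (20%). Of 627 lower at 14 d (3.68%), 555 were negative (88.5%) and 131 lower at an unadjusted p (20.9%). Over all features 54.8% were positive and 45.2% negative at 28 d. Their median log2 fold changes were 0.19 at 28 d and 0.79 at 14 d for those higher, and -0.21 and -0.76 for those lower. A smaller size at 28 d is partly fixed by choosing them at 14 d. In both sets 0 features passed at 28 d, and the single call at 28 d, Serpina7, had not passed at 14 d. For the difference of the effect between 28 d and 14 d, edgeR called 0 features at an adjusted p under 0.05, with 581 higher and 500 lower at 28 d at an unadjusted p (6.34% in all). DESeq2 called 21 higher and 1 lower, and limma called 0 and 0.

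Between 40 and 20 mg/mL at 28 d, 1 of 17050 features passed (0.00587%), a probe of Brwd3, a bromodomain protein. It had 0.552, 1.21 and 3.34 CPM at 40 mg/mL against 2.63, 4.75 and 15.2 CPM at 20 mg/mL. The log2 fold change was -1.96 at an adjusted p of 0.00693, and the groups overlapped in a narrow range at these low levels. The 2 other Brwd3 probes gave -0.48 and 0.18, and limma, the filter at 5 CPM, the fit of these groups alone and the sum of probes did not call it. At an unadjusted p, 11.1% of features differed. For Fgf21 the log2 fold change of 40 over 20 mg/mL was 3.37 at an adjusted p of 0.0926, with medians of 3.66, 1.35, 1.44 and 15.2 CPM at 0, 10, 20 and 40 mg/mL. Oat had medians of 453, 413, 212 and 125 CPM over the same doses, and Elovl3 44.1, 34.3, 20.2 and 11.6 CPM.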

How the data were processed

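The submitters' processing notes name bcl2fastq 2.20 and Bowtie. The Bowtie version, the build and the counter are not given in the sources used here. The authors deposited raw counts per probe (30146 probes, 72 libraries), neither scaled nor logged. The labelled concentration and time set the groups, and no batch is labelled. Replicate 5 at 40 mg/mL for 14 d (0.0108 M counts) was left out. filterByExpr over the 8 groups left 17050 features of 11784 symbols.

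Counts of all 71 libraries were fitted with edgeR 4.0.16 under R 4.3.3 (robust quasi-likelihood, TMM, 1 mean per group), with Benjamini-Hochberg adjustment over all features at 0.05. CPM are scaled by TMM. Intervals are 95%. The scripts were tested on simulated counts. Alternatives used DESeq2 1.42.0 and limma 3.58.1. The rule named calls at a mean of at least 5 CPM, members of 27 gene lists that passed and 21 genes always. The members, the rule and the lists were chosen with earlier results of these data known, and the lists share genes. Results of some listed genes are not reported here.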

Additional observations from a re-analysis of the deposited data

Results flagged for a closer look

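In 34 of 204 groups of 9 values examined at 28 d, 1 animal lay far from the other 8 by Dixon's ratio at 0.493, which chance alone would give in about 1 of 20 groups. Of these, 5 were in mice at 40 mg/mL and 29 in mice at 0 mg/mL. The dosed animals were replicate 4 for Abcc2 (753 CPM, the highest), replicate 1 for Ablim3 (12.1 CPM, the lowest), replicate 6 for a probe of Selenbp2 (0 CPM), replicate 8 for Sult2a1 (3.86 CPM) and replicate 7 for Ugt1a9 (0.428 CPM). Among the controls, replicate 4 was high for Btg2 (21.9 CPM) and Jak2 (19.8 CPM), and replicate 8 was high for Gpi1 (145 CPM).

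The remaining values far from the rest are all of control replicate 3. Its scaling factor was 1.37, the highest of the controls, and its 20 most abundant features held 13.4% of counts, the lowest share. In this library the following enzymes and transporters were lowest of the 9 controls. Conjugation and drug metabolism gave Ugt1a1 (965 CPM), Ugt2a3 (261), Ugt2b1 (30.0), Ugt2b34 (158), Gstk1 (239), Cyp1a2 (113), Cyp2c29 (404), Cyp2c55 (0) and Cyp3a11 (193). Transporters and the carrier were Slco1a1 (7.59), Slco1b2 (90.6), Slc1a2 (68.4) and Ttr (1660). Metabolic and secreted products were Adh4 (289), Aldh2 (582), Ass1 (1240), Ebp (43.7), Ethe1 (38.8), Lect2 (178), Me1 (85.0) and the glucose transporter Slc5a1 (0.979), all in CPM. It was the highest of the controls for Acot4 (6.37 CPM), Por (58.8 CPM) and Rps3a1 (106 CPM). Without it edgeR called 6 features higher and 2 lower in place of 1 and 0.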

How the results depend on the processing

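The count of 1 feature higher and 0 lower was the same with DESeq2's size factors, with scaling that left out the 20 most abundant features, with no filter, and without control replicate 3 and dosed replicates 6 and 7. Other settings moved it to 19 higher and 11 lower (DESeq2), 69 and 114 (limma with quality weights), 4 and 2 (no robust estimation), 5 and 3 (filter at 5 CPM), 11 and 14 (these groups alone), 59 and 7 (log2 scaling factor as covariate) and 3 and 2 (probes summed). Leaving out each of the 18 libraries in turn gave 0 to 11 higher and 0 to 6 lower, with 6 and 2 without control replicate 3, 11 and 6 without dosed replicate 5, 3 and 0 without dosed replicate 6 or 7, and 2 and 0 without dosed replicate 1 or 2. Serpina7 was called in all 11 alternatives that kept every library or left out 3, and in 13 of the 18 that left out 1. The cause of these shifts was not tested.

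For the difference between durations DESeq2 gave 21 higher and 1 lower. For 40 over 20 mg/mL it gave 27 higher and 8 lower, the covariate gave 6 higher, and limma, the 5 CPM filter, the groups alone and summed probes gave 0 lower. The share of the 50 most abundant features differed by -3.81 percentage points (exact permutation p = 0.108), and that of the 10 most abundant by -3.28 (exact permutation p = 0.0276). Calls at 14 d and 28 d shared 0 features at an adjusted p of 0.05 or 0.01.

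Of 100 features examined singly, 10 changed sign under some setting, all with small fold changes. With the covariate the log2 fold changes were 0.042 (Abcc3), 0.44 (Cyp3a11), 0.32 (Slco1b2), 0.26 (Ugt1a1), 0.11 (Ugt1a6a) and 0.29 (Ugt2b34). Without control replicate 3 and dosed replicates 6 and 7 they were 0.018 (Abcc3), 0.065 (Cyp3a11), 0.038 (Slco1b2), 0.20 (Ugt1a6a) and 0.084 (Ugt2b34). limma gave -0.0058 for Ttr and 0.11 for Ugt1a6a, and summed probes gave 0.095 for Ugt1a6a. Ugt2b34 had 0.0032 with DESeq2 and with its size factors, 0.015 with the 5 CPM filter, 0.00046 with these groups alone and 0.0026 with summed probes. Leaving out 1 library gave -0.043 to 0.036 for Abcc2, -0.17 to 0.080 for Cyp3a11, -0.20 to 0.047 for Slco1b2, -0.081 to 0.16 for Sult1a1, -0.092 to 0.21 for Sult1d1, -0.082 to 0.11 for Ttr, -0.20 to 0.13 for Ugt1a6a and -0.11 to 0.093 for Ugt2b34. No paired analysis was possible because the labels give animal numbers and the replicate numbers follow the order of listing. With 9 animals a group and a median standard error of 0.25, small log2 differences could not be detected.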
